A study of Mus musculus with 9 samples.

Results

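The nuclear genes of oxidative phosphorylation (OXPHOS) were followed across control, IL-4- and IL-6-treated mouse macrophages (Mϕs). The members were the protein-coding genes of the deposited table whose symbols begin with Ndufa, Ndufb, Ndufc, Ndufs, Ndufv, Uqcr, Cox4, Cox5, Cox6, Cox7, Cox8 or Atp5, together with Sdha, Sdhb, Sdhc, Sdhd, Cyc1 and Cycs, and without pseudogenes. This gave 95 of 53379 genes: 36 of complex I, 4 of complex II, 9 of complex III, cytochrome c, 20 of complex IV, 17 of complex V and 8 complex I assembly factors (Ndufaf genes), which the Ndufa prefix takes in although they build the complex and are no subunits of it. Ndufa4 and Ndufa4l2 were counted with complex IV, where their proteins sit. Atp5s, taken in by its prefix, is a coupling factor of the ATP synthase.

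The electron transport chain lies in the inner mitochondrial membrane. Complex I (from NADH) and complex II (from succinate, an intermediate of the citric acid cycle) hand electrons to ubiquinone, complex III passes them to cytochrome c and complex IV to oxygen, while complexes I, III and IV pump protons and complex V, the ATP synthase, lets them flow back to make ATP. Complexes I, III, IV and V combine subunits from nuclear genes and from mitochondrial DNA, and complex II is nuclear only. In Mϕs, IL-4 is known to favor oxidative metabolism along with the alternative state, and IL-6 signals mainly through STAT3.

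Bone marrow of wild-type C57BL/6 mice was cultured with CSF-1 at 10 ng/ml for 3 days, and then for 4 days with CSF-1 alone (control), with IL-4 at 10 ng/ml or with IL-6 at 100 ng/ml by the labels. The study's methods give the same IL-6 dose and treatment time but a higher IL-4 dose. Its figure legends give another dose of both cytokines and a shorter treatment. The deposited column names carry 4d, the treatment time of the labels and the methods. The conflict over the doses was not settled. Each of the 3 conditions has 3 libraries, numbered #1 to #3, from 3 mice, and CSF-1 was present in all. Values are FPKM, the fragments per kilobase of exon and per 1000000 fragments, read from 29988160 to 39909571 fragments a library. As a check of the treatments, Arg1, the arginase that IL-4 induces, was at 0.41 to 0.72 FPKM in controls and at 1227, 1176 and 730.3 with IL-4, and Socs3, a target of STAT3, was at 1.61 to 2.91 FPKM in controls and at 74.7, 80.9 and 85.5 with IL-6. Of the Mϕ markers, 8 of 8 were measured and their summed level was 16662 to 18966 FPKM in controls, 6021 to 7062 under IL-4, and 20369 to 21461 under IL-6, and the sum of 9 granulocyte markers was 4741 to 8459, 2137 to 3978 and 7891 to 10965 FPKM. With IL-4, 6 of 8 Mϕ markers and 8 of 9 granulocyte markers passed as lower (adjusted p under 0.05), where 16.3% of all genes tested did. Without IL-4 #3, 7 of the 8 Mϕ markers passed as lower and 1, Itgam, as higher (1.02 on the log2 scale). The part of these markers in the OXPHOS values was not tested. In such bulk libraries, a change in the mixture of cells and a change of RNA within each cell cannot be told apart.

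Libraries stood apart in 2 ways. IL-4 #3 read long transcripts low: its median deviation from the gene mean on the log2 scale was −0.04 over genes under 1 kb of exon, 0.39 over genes of 1 to 2 kb and −1.08 over genes above 8 kb, while the other libraries stayed between −0.24 and 0.38 in all length classes. Its 76 cytosolic ribosomal protein genes summed to 42046 FPKM against 12609 to 19625 in the other libraries, and its transcripts of mitochondrial DNA to 3400 against 6610 to 11935. Separately, fragments of 20 Paneth and goblet cell genes, which belong to intestine, were present in the control libraries and IL-4 #1 (1264 to 1675 fragments) and nearly absent from IL-4 #2, IL-4 #3 and the IL-6 libraries (3 to 8), so that control and IL-6 lie in different sets of libraries. Clca3a1, also in that list, was kept out of this sum after its values were seen: it had 513, 772 and 566 fragments in the IL-6 libraries and 6 to 40 in the others. Each result was therefore also read without IL-4 #3 and with a term for the set.

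The OXPHOS genes are known for promoters with sites of the factors NRF1, ETS (as GABP) and YY1, and their starting sequences are shown here for 4 members on which later results turn. They are the 250 bases before the RefSeq start on GRCm38.p6, 5′ to 3′ on the gene's own strand, with the NRF1 core GCATGCGC in either orientation in capitals. For Cycs the GENCODE M21 transcript starts downstream of the RefSeq start, so the annotations differ there. Cycs (chr6:50566570-50566819, minus strand) and Atp5b (chr10:128083057-128083306, plus strand) were among the members that rose most with IL-4, Ndufaf4 (chr4:24897833-24898082, plus strand) had the smallest adjusted p of the assembly factors, and Sdhb (chr4:140961021-140961270, plus strand) is shown as a member that did not pass that test.
Cycs: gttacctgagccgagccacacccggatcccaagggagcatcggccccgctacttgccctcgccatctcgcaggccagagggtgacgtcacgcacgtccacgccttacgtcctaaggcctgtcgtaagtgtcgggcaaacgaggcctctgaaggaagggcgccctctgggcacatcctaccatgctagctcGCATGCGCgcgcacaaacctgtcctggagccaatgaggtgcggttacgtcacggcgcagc
Ndufaf4: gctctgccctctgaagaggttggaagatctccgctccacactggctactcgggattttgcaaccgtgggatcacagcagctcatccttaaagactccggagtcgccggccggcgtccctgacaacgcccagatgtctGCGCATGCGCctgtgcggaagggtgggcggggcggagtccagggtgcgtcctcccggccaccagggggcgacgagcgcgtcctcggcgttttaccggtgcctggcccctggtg
Atp5b: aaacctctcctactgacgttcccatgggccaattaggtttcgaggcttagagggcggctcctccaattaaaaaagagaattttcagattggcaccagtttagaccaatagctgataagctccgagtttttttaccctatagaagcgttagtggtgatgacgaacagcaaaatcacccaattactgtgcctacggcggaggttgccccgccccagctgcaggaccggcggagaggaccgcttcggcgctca
Sdhb: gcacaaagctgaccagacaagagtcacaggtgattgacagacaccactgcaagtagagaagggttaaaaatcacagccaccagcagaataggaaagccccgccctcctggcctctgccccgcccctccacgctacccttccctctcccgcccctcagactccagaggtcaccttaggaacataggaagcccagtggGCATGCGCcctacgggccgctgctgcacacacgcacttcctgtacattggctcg
The core stands in the Cycs, Ndufaf4 and Sdhb stretches, and the Atp5b stretch holds none of the letters searched. Of 77 members with a promoter in the table, 13 (16.9%) held the core within the 300 bases from 250 before to 50 after the start, against 3.05% of 27025 genes. The ETS letters CCGGAAG were in 18 (23.4%, against 9.93%) and the YY1 letters AAGATGGC in 11 (14.3%, against 3.19%), each on either strand and with overlaps between motifs allowed, and 35 members (45.5%) held at least 1 of the 3 against 14.9% of all genes. Among 12 of the members called higher with IL-4, 4 held the NRF1 core (33.3%), 2 ETS and 2 YY1 letters. Among 63 tested members not called, 9 held the NRF1 core (14.3%), 16 the ETS and 9 the YY1 letters. These matches are letters in a window and were not tested against the response.

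As single values, 3 libraries against 3 cannot give an exact two-sided permutation p under 0.1, so tests below come from the fit over all genes. The levels of the members spanned from 0 to 671 FPKM. The 5 members below the filter of a mean of 0.5 FPKM were all isoforms of complex IV known from other tissues: Cox7b2 and Cox8c were listed at 0 in all 9 libraries, Cox8b, the muscle form of subunit 8, reached 0.0917, Ndufa4l2, a hypoxia-responsive relative of Ndufa4, reached 0.0559, and Cox4i2, the lung form of subunit 4, reached 0.293 FPKM. Of the widely expressed partners, Cox4i1 ranged from 151 to 566 FPKM and Cox8a from 237 to 671. The isoforms thus differed strongly within a subunit, per length of exon. Cox6b2, the testis form of subunit 6b, passed the filter at 0.37 to 0.774 FPKM, against 153 to 376 for Cox6b1. Cox7a1, the heart and muscle form of subunit 7a, was at 1.23 to 7.40 FPKM, against 51.6 to 196 for Cox7a2.

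With IL-4, 16 of 90 tested members rose against control at an adjusted p under 0.05 (limma on log2(FPKM + 0.1), Benjamini-Hochberg over 12824 genes), where 8.55% of all genes tested were called higher. In the other direction 0 members passed, where 16.3% of all genes did. At an unadjusted p under 0.05, 1 member was lower, where 3130 of 12824 genes were. Voom on the recovered fragments called 13 of 74 members higher (background 12.1%) and 0 lower (background 12.7%). The members called higher were 4 of 17 in complex V (Atp5b, Atp5a1, Atp5g3, Atp5j), 3 of 9 in complex III (Uqcrfs1, Cyc1, Uqcrc1), 3 of 4 in complex II (Sdha, Sdhc, Sdhd), Cycs, 2 of 15 in complex IV (Cox6a2, Cox7b), 1 of 36 in complex I (Ndufa9) and 2 of 8 assembly factors (Ndufaf4, Ndufaf5). The median log2 difference over the 90 members was 0.53, beside −0.20 over all genes tested. Rescaling each library by its median ratio moved the median of all genes to −0.01 and that of the members to 0.73, with 14 members higher and 0 lower. The background was then 12.3% higher and 12.6% lower (1574 and 1618 genes, against 1096 and 2090 as deposited).

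Without IL-4 #3 the 16 members all remained among 21 called higher, where the background was 15.3%, and the median of the members was 0.19 beside −0.07 over all genes. The 5 added were Ndufs1, Ndufv1, Uqcrc2, Cox5b and Atp5o, and 2 members now passed as lower (background 22.5%), Atp5s at −0.43 and Ndufaf7, an assembly factor, at −0.85 on the log2 scale. These added names were chosen after their values were seen. IL-4 #3 lay above all 3 controls in 87 of 90 members, while IL-4 #1 did so in 30 and IL-4 #2 in 44. The same counts over all genes were not taken. Of the 16, Cycs, Atp5b, Atp5a1, Uqcrfs1 and Ndufaf4 were called in all 9 fits that left out 1 library, and they were the 5 members called without Control #1 and without Control #3. Sdha was called in 1 of the 9 fits, and Ndufaf5, Uqcrc1 and Atp5j in 2 each. The plot of the IL-4 differences with and without IL-4 #3 shows how far that library lifts most members.

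**Figure D1:**
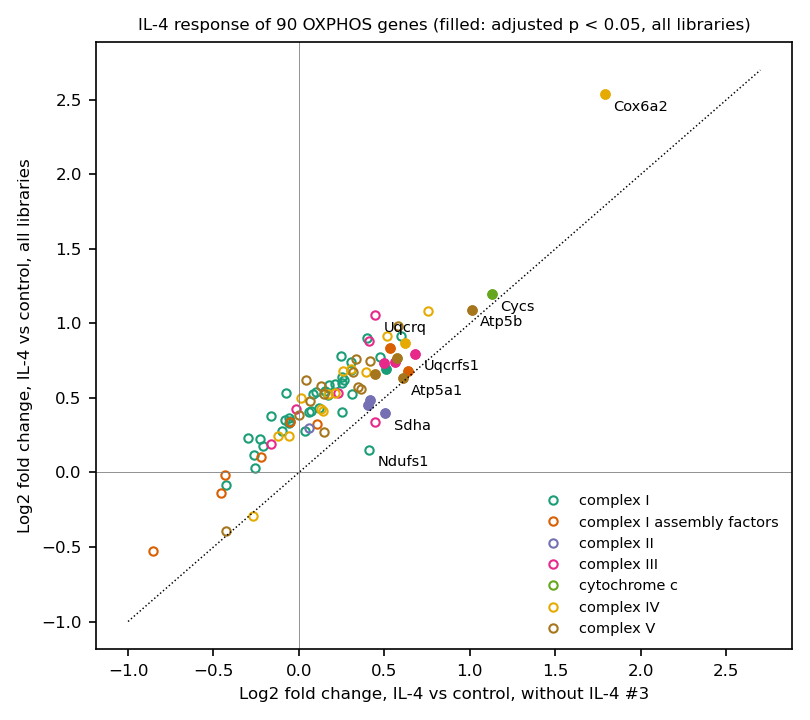
Log2 fold change of 90 OXPHOS genes, IL-4 against control, with all libraries (vertical axis) and without IL-4 #3 (horizontal axis), colored by complex, with filled points at an adjusted p under 0.05 in all libraries. Most points lie above the dotted line of equal values, with medians of 0.53 and 0.19, and Cycs, Atp5b and Atp5a1 lie close to it.

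In complex V, Atp5b, the catalytic beta subunit of the ATP synthase, was at 109, 142 and 134 FPKM in the 3 controls, 252, 263 and 305 under IL-4, and 103, 113 and 114 under IL-6. Every IL-4 library stood above every other library. The log2 difference from control was 1.09 ± 0.14 (SE, n = 3 libraries a group, limma adjusted p = 0.000782), and it was 1.01 without IL-4 #3 (adjusted p = 0.00054). Atp5a1, the alpha subunit that alternates with beta in the same ring, was at 167, 199 and 188 FPKM in the 3 controls, 279.7, 282 and 296 under IL-4, and 142, 153 and 147 under IL-6. The 3 IL-4 libraries were nearly level here, IL-4 #3 included, and the groups did not overlap. Its log2 difference was 0.63 ± 0.11 (limma adjusted p = 0.00409).

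Both proteins belong to the soluble F1 part, where ATP is made. Other F1 and stalk members moved with less certainty. Atp5c1, the gamma subunit, differed by 0.58 ± 0.20 (limma adjusted p = 0.0733) and Atp5d, the delta subunit, by 0.76 ± 0.34 (adjusted p = 0.147). Atp5j, a stalk subunit, passed with all libraries but in only 2 of the 9 fits that left out 1 library. In the proton-conducting part, 3 genes encode the same mature c subunit. Atp5g3 was at 61.4, 87.7 and 80.8 FPKM in the 3 controls, 119, 107 and 169 under IL-4, and 59.3, 65.7 and 65.3 under IL-6. It passed at 0.77 ± 0.20 (limma adjusted p = 0.024), while Atp5g1 differed by 0.75 ± 0.29 (adjusted p = 0.0949) and Atp5g2 by 0.27 ± 0.16 (adjusted p = 0.258).

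Cytochrome c, the soluble carrier between complexes III and IV that also has a role in apoptosis, behaved like Atp5b. Cycs was at 10.3, 14.8 and 12.5 FPKM in the 3 controls, 27.9, 26.5 and 31.3 under IL-4, and 11.4, 13.2 and 11.98 under IL-6. No IL-4 value overlapped with another group, and the control and IL-6 ranges did. The log2 difference was 1.20 ± 0.15 with IL-4 (limma adjusted p = 0.000774) and 1.13 without IL-4 #3 (adjusted p = 0.00074). Of the 50-base stretches in Cycs exons 25.9% also occur in another gene, mainly Gm10053, which had at most 0.33 FPKM, and how reads with several matches were treated is not stated. With a term for the set, Cycs (limma adjusted p = 0.0168) and Atp5b (adjusted p = 0.0193) were the 2 members still called higher, a share of 2.22% where 4.57% of all genes were called, and 0 were called lower (background 6.09%). The within-set ratio of IL-4 #1 to the control mean was 2.23 for Cycs, and over 90 members its median was 1.10 with 58 above 1.

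**Figure D2:**
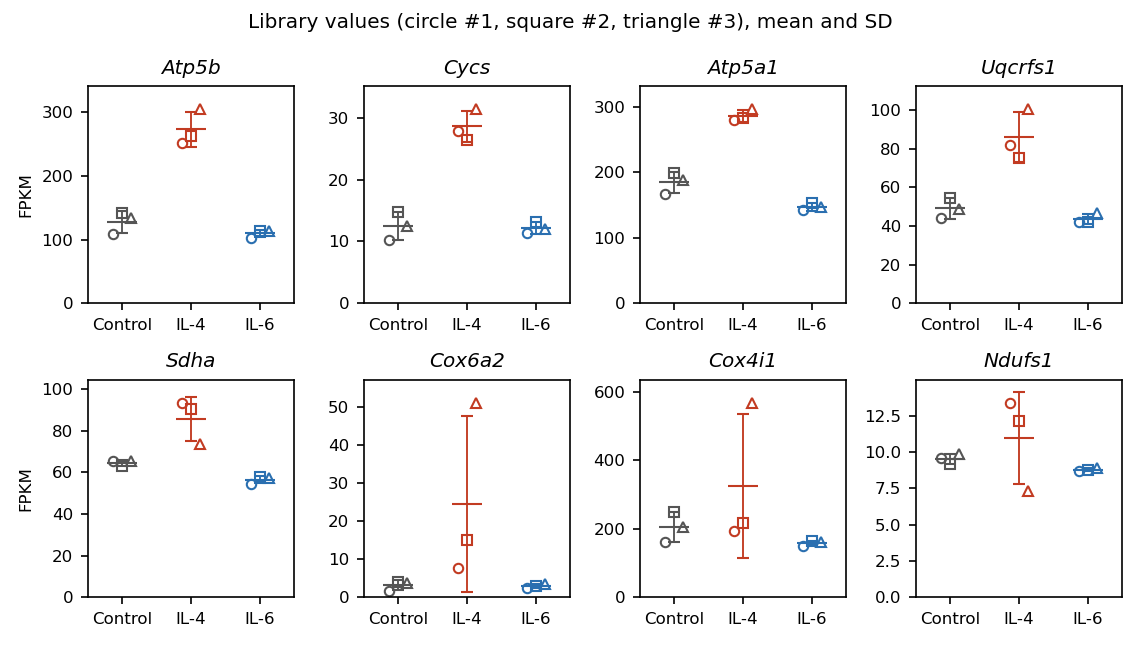
FPKM of 8 OXPHOS genes in each library by group, with the mean and SD of 3 libraries as bars; circles, squares and triangles mark replicates #1, #2 and #3. The IL-4 values of Atp5b, Cycs, Atp5a1 and Uqcrfs1 lie above all control and IL-6 values, while Cox4i1 is high in IL-4 #3 only and Ndufs1 is low in IL-4 #3 only.

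In complex III, the IL-4 rise was found in 3 subunits with redox or core roles. Uqcrfs1, the Rieske iron-sulfur protein, was at 43.9, 54.7 and 48.9 FPKM in the 3 controls, 82.1, 75.2 and 100.3 under IL-4, and 42.1, 42.1 and 46.7 under IL-6. The IL-4 libraries did not overlap with the others, and the log2 difference was 0.80 ± 0.14 (limma adjusted p = 0.00445). Cyc1, the cytochrome c1 heme protein, was at 47.1, 63.96 and 58.2 FPKM in the 3 controls, 81.6, 83.9 and 121 under IL-4, and 46.99, 51.8 and 50.1 under IL-6, a log2 difference of 0.74 ± 0.18 (limma adjusted p = 0.0184). Uqcrc1, a core protein, was at 30.05, 41.8 and 37.5 FPKM in the 3 controls, 49.9, 52.3 and 83.97 under IL-4, and 24.6, 27.6 and 27.95 under IL-6, and all 3 IL-4 values again exceeded every control. It differed from control by 0.74 ± 0.22 (limma adjusted p = 0.0385). Uqcrq, a small subunit, had a larger but looser log2 difference of 1.06 ± 0.47 (limma adjusted p = 0.144). Its value in IL-4 #3 was 157 FPKM against 38.99 and 49.97 in the other IL-4 libraries.

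Complex II, which links the citric acid cycle to the chain, was called in 3 of its 4 subunits. Sdha, the flavoprotein that oxidizes succinate, was at 65.6, 62.8 and 65.2 FPKM in the 3 controls, 93.1, 90.3 and 73.4 under IL-4, and 54.4, 57.7 and 57.2 under IL-6. Here IL-4 #3 was the lowest of its group but still above the controls. The log2 difference was 0.40 ± 0.12 (limma adjusted p = 0.0384) and 0.51 without IL-4 #3 (adjusted p = 0.0011). Sdhd, a membrane anchor, was at 86.8, 104 and 97.2 FPKM in the 3 controls, 128, 125 and 141 under IL-4, and 85.6, 89.9 and 87.6 under IL-6. It differed by 0.46 ± 0.11 (limma adjusted p = 0.018), and Sdhc, the other anchor, by 0.49 ± 0.13 (adjusted p = 0.0269). Sdhb, the iron-sulfur subunit, was at 53.4, 69.4 and 60.2 FPKM in the 3 controls, 60.8, 65.4 and 104 under IL-4, and 52.05, 52.2 and 51.4 under IL-6. Controls and IL-4 #1 and #2 overlapped, and the log2 difference of 0.30 ± 0.20 did not pass (limma adjusted p = 0.33).

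Complex I was different in count: 1 of 36 subunits passed with IL-4, although 35 of 36 differences lay above 0 (median 0.48). Without IL-4 #3, 23 lay above 0 and the median was 0.11. Ndufa9, an accessory subunit at the junction of the arms, was at 23.5, 30.8 and 27.8 FPKM in the 3 controls, 38.8, 38.8 and 57.3 under IL-4, and 21.1, 20.03 and 21.2 under IL-6. Its groups did not overlap and the log2 difference was 0.70 ± 0.18 (limma adjusted p = 0.0216). Ndufv1, a catalytic core member which binds NADH and FMN, differed by 0.77 ± 0.25 (limma adjusted p = 0.0558; 0.028 without IL-4 #3). Ndufs1, the large iron-sulfur protein and the member with the longest exons, was at 9.56, 9.15 and 9.88 FPKM in the 3 controls, 13.4, 12.1 and 7.35 under IL-4, and 8.696, 8.75 and 8.89 under IL-6. IL-4 #1 and #2 were the highest libraries and IL-4 #3 the lowest. The log2 difference was therefore 0.15 ± 0.21 with all libraries (limma adjusted p = 0.625) and 0.41 without IL-4 #3 (adjusted p = 0.0057).

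The assembly factors split. Ndufaf4 was at 2.66, 2.72 and 2.77 FPKM in the 3 controls, 4.199, 4.36 and 4.67 under IL-4, and 2.42, 2.48 and 2.29 under IL-6. Its 3 IL-4 values were close together and above all others, for a log2 difference of 0.68 ± 0.12 (limma adjusted p = 0.00458). Ndufaf5 differed by 0.84 ± 0.26 (limma adjusted p = 0.0474). Ndufaf3, Ndufaf6, Ndufaf7 and Ndufaf8 had IL-4 #1 and #2 below every control and IL-4 #3 above every control.

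In complex IV, the largest difference of all members belonged to Cox6a2, the heart and muscle form of subunit 6a. It was at 1.73, 4.17 and 3.81 FPKM in the 3 controls, 7.62, 15.1 and 51.1 under IL-4, and 2.45, 3.11 and 3.45 under IL-6. The IL-4 libraries did not overlap with the rest but spread widely, with IL-4 #3 far above the others. The log2 difference was 2.54 ± 0.64 (limma adjusted p = 0.0215) and 1.79 without IL-4 #3 (adjusted p = 0.011), while voom on recovered fragments gave an adjusted p of 0.0519. The 20 genes of a skeletal muscle list summed to 11.8 to 15.6 fragments per 1000000 in controls, 20.2, 38.8 and 56.2 under IL-4, and 21.9 to 34.4 under IL-6. Of the 5 tested, 0 were called higher with IL-4 and 1, Tnni2, lower (−2.15, limma adjusted p = 0.00153). Ryr1, singled out after its values were seen, had 490 to 1389 fragments with IL-4 against 21 to 66 elsewhere, while Myh1 and Myl1 were at 0 in the controls and IL-4 #1 and at 43 to 106 in the remaining libraries. The part of muscle transcripts in the Cox6a2 values was not tested. Cox6a1, the common form, was at 143, 219 and 189 FPKM in the 3 controls, 199, 208 and 427 under IL-4, and 125, 134 and 152 under IL-6, with a log2 difference of 0.53 ± 0.30 (limma adjusted p = 0.245). Cox7b was at 51.3, 75.7 and 70.9 FPKM in the 3 controls, 102, 98.2 and 168 under IL-4, and 58.3, 62.3 and 65.3 under IL-6. It passed at 0.87 ± 0.23 (limma adjusted p = 0.0267).

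Other complex IV genes were not called. Cox4i1, the common form of the regulatory subunit 4, was at 163, 248 and 206 FPKM in the 3 controls, 192, 216 and 566 under IL-4, and 151, 164 and 162 under IL-6. Its controls overlapped with IL-4 #1 and #2, and the log2 difference was 0.50 ± 0.38 (limma adjusted p = 0.374), and 0.01 without IL-4 #3. Cox5a differed by 0.53 ± 0.27 (adjusted p = 0.2), Cox5b by 0.92 ± 0.33 (adjusted p = 0.0748), Cox6b1 by 0.43 ± 0.25 (adjusted p = 0.254), Cox7a1 by 1.09 ± 0.44 (adjusted p = 0.11) and Cox8a by 0.68 ± 0.25 (adjusted p = 0.0807) in the limma fit. Cox7a2 (0.68 ± 0.34), Cox7a2l, which helps join complexes III and IV (0.24 ± 0.29), Ndufa4 (0.24 ± 0.26) and Cox6b2 (−0.29 ± 0.30) were also not called.

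Counted by library range, all 3 IL-4 values exceeded all controls in 29 members (background 13.5%) and lay below them in 1, Atp5s (background 26.8%). Atp5s was at 3.03, 3.27 and 2.96 FPKM in the 3 controls, 2.05, 2.51 and 2.46 under IL-4, and 2.25, 2.33 and 2.27 under IL-6. The IL-4 and IL-6 ranges overlapped and the log2 difference with IL-4 was −0.39 ± 0.14 (limma adjusted p = 0.0717). The summed FPKM of all members was 3860, 5519 and 4818 in controls, 5409, 5705 and 10891 under IL-4, and 3794, 4186 and 4191 under IL-6. IL-4 #1 thus lay within the range of the controls and IL-4 #2 just above it, and IL-4 #3 held about 230% of the control mean. By complex, IL-4 #1 and #2 stood at 97.4% and 107.7% of the control mean for complex I, 128.4% and 127.2% for complex II, 133.4% and 138.8% for complex V and 223.1% and 211.5% for cytochrome c, as the plot of sums by complex shows.

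**Figure D3:**
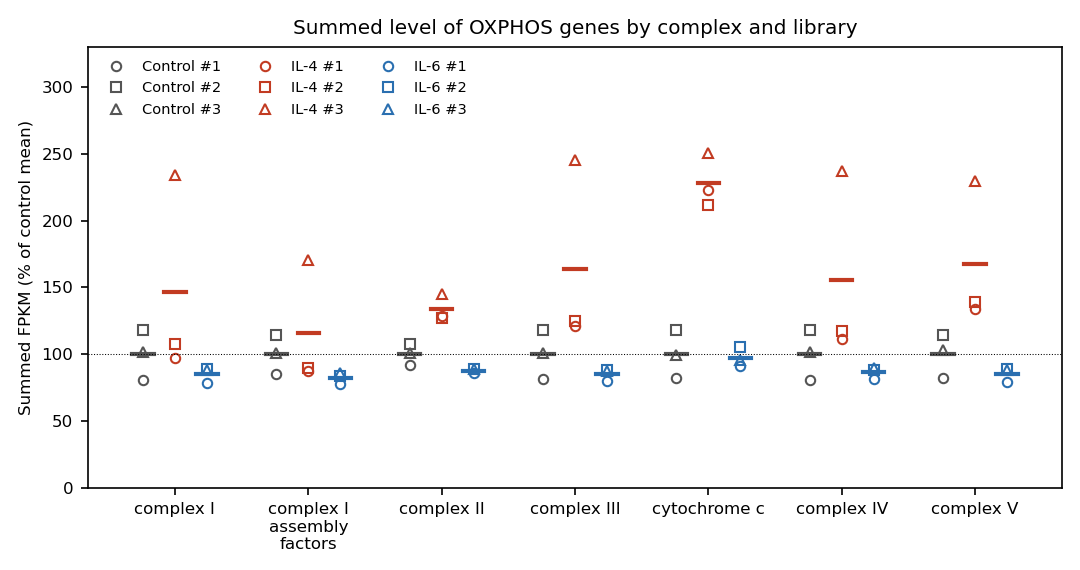
Summed FPKM of each complex in each library as a percentage of the control mean (dotted line), with the mean of 3 libraries as a bar. IL-4 #3 is the highest library in all 7 groups, while IL-4 #1 and #2 lie above all controls for complexes II, III and V and cytochrome c and not for complex I.

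The excess of IL-4 #3 was seen over members of most lengths. On the log2 scale IL-4 #3 exceeded the mean of IL-4 #1 and #2 by a median of 1.04 over the members, where all genes tested had −0.35, and it exceeded it in 86 of 90. In genes of 1 to 2 kb the median was 1.15 over 35 members and 0.49 over all genes, and in genes of 4 to 8 kb it was 0.86 over 10 members and −0.61 over all genes. Cytosolic ribosomal protein genes had 1.48, mitochondrial ribosomal protein genes 0.91, the inner membrane and import list 0.73, and the transcripts of mitochondrial DNA −1.51. The plot by exon length gives both. With each library's trend on length and GC content removed, 38 members were called higher with IL-4 (background 15.0%) and 1 lower (background 17.7%).

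**Figure D4:**
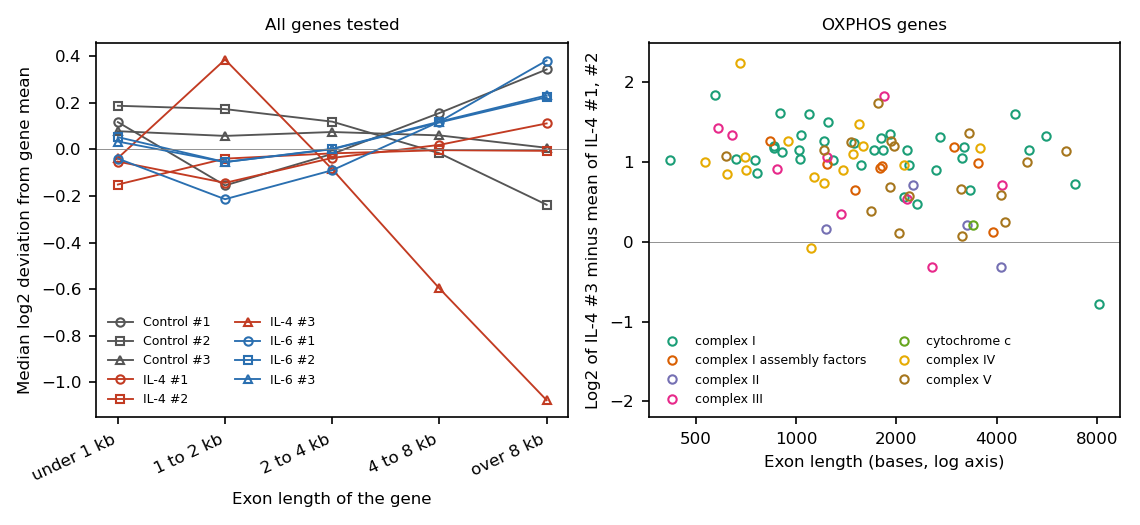
Left, median log2 deviation from the gene mean in each library by exon length over all genes tested; right, log2 excess of IL-4 #3 over the mean of IL-4 #1 and #2 for each of 90 OXPHOS genes against exon length on a log axis. Over all genes IL-4 #3 lies at −0.04 under 1 kb, at 0.39 from 1 to 2 kb and then falls to −1.08 above 8 kb, while 86 of 90 members lie above 0.

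Most partners encoded by mitochondrial DNA had lower values in IL-4 #3, where 2 of the 12 tested exceeded the mean of IL-4 #1 and #2. Of 13 in the table, 12 were tested and 0 passed with IL-4 in the limma fit, at an unadjusted p under 0.05 also 0, while voom called 0 with 1 unadjusted. Without IL-4 #3, 5 of 12 passed as higher (background 15.3%) with a median log2 difference of 0.67. With a term for the set, where IL-4 #1 alone stands against the controls, the median log2 difference was 0.61. Mt-Cytb, the complex III subunit, was at 1573, 1061 and 1242 FPKM in controls, 2018, 1990 and 786 under IL-4, and 1675, 1370 and 1484 under IL-6. IL-4 #1 and #2 were the highest and IL-4 #3 the lowest. Mt-Nd1, of complex I, had 1196, 749 and 944 FPKM in controls, 1571, 1459.5 and 473 under IL-4, and 1324, 974 and 1116 under IL-6, in the same order. Mt-Co1, the catalytic subunit of complex IV, was at 3452 to 4901 FPKM in controls and at 5038, 4830 and 1198 with IL-4. Mt-Co3, mt-Atp6, mt-Nd3, mt-Nd4l and mt-Atp8 were listed at under 10 FPKM in all libraries. Whether these low values reflect RNA levels or the way reads were assigned was not tested.

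Other mitochondrial lists were counted in the same fit for IL-4 against control, where 8.55% of all genes were called higher and 16.3% lower. Of 39 assembly factors of the chain, 3 rose, led by Cox10 (0.66, limma adjusted p = 0.0142), a farnesyltransferase that makes heme for complex IV. Of 25 import and inner membrane genes 7 rose, led by Timm8a1 (2.05, limma adjusted p = 0.00401), a small chaperone between the membranes. Of 77 mitochondrial ribosomal proteins 9 rose, led by Mrps28 (1.06, limma adjusted p = 0.0424). Carriers split into 5 that rose and 4 that fell, led by Slc25a13 (2.15, limma adjusted p = 0.000187), the aspartate and glutamate carrier, and Slc25a10 (−1.75, adjusted p = 3.74e-05), the dicarboxylate carrier. Of 16 genes that feed electrons to ubiquinone or make it, 2 rose, led by Coq3 (0.73, limma adjusted p = 0.0198), and 1 fell, Coq8a (−0.56, adjusted p = 0.0281). Among 17 regulators, Ppargc1b, a coactivator of mitochondrial genes, rose by 1.92 (limma adjusted p = 0.0411) and Polg, the mitochondrial DNA polymerase, fell by 0.89 on the log2 scale (adjusted p = 0.0432). Ppargc1b had 0.41 to 0.80 FPKM in controls and 4.69, 3.23 and 0.81 with IL-4, so that IL-4 #3 stood just above the controls. Of 76 cytosolic ribosomal protein genes 0 were called in either direction, with 2 higher at an unadjusted p under 0.05 and 0 calls by voom.

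With IL-6, 0 of 90 members passed against control in either direction, where 4.58% of all genes were called higher and 3.82% lower. At an unadjusted p under 0.05, 3 members were lower and 0 higher. Over all genes, 2730 of 12824 stood under that p and 1461 of them were lower. Voom called 0 members, with 1 lower unadjusted (background of calls 5.49% higher and 3.64% lower). Still, 86 of 90 differences lay below 0, with a median of −0.20 beside −0.00 over all genes. Without IL-4 #3, which enters this contrast only through the shared estimate of the spread, 7 members passed as lower (background 12.4%) and 0 as higher (background 12.3%), with 0 higher and 21 lower at an unadjusted p under 0.05. Those that passed were Atp5a1, Atp5s, Ndufa9, Ndufs3, Ndufs7, Ndufaf6 and Uqcrc1. The unadjusted share over all genes in that fit is not given here. With a term for the set, 0 passed in either direction (5 lower and 0 higher unadjusted; background 1.15% higher and 0.312% lower) and the median was −0.74 beside 0.20 over all genes.

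Ndufaf6, an assembly factor, had the largest log2 difference with IL-6. It was at 2.76, 3.24 and 2.72 FPKM in the 3 controls, 2.51, 2.43 and 4.95 under IL-4, and 1.44, 1.69 and 1.53 under IL-6. Its IL-6 libraries lay below all others, a log2 difference of −0.86 ± 0.27 (limma adjusted p = 0.095, and 0.0017 without IL-4 #3). The values of Atp5a1, given above, also did not overlap between control and IL-6 (−0.33 ± 0.11, limma adjusted p = 0.124). For Cycs and Atp5j, a stalk subunit, the log2 differences of −0.03 ± 0.15 and 0.02 ± 0.20 lay within the error. All 3 IL-6 values were below all controls in 17 members (background 23.2%) and above them in 0 (background 20.0%). IL-6 #1 was below all controls in 56 members, IL-6 #2 in 25 and IL-6 #3 in 22, and these counts were not taken over all genes. Control #1, with 109 FPKM of Atp5b and 163 of Cox4i1, was the lowest control in 85 of the 90 tested.

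The contrast between the cytokines was the widest. With IL-6, 33 members were lower than with IL-4 (background 13.3%) and 0 higher (background 20.8%). At an unadjusted p under 0.05, 57 were lower and 0 higher. Over all genes, 5995 of 12824 stood under that p and 2303 of them were lower. Voom called 28 of 74 members lower (background 16.7%) and 0 higher (background 18.0%). Without IL-4 #3 the 33 all remained among 37 lower (background 18.5%), and 1, Ndufaf7, was higher (background 24.7%). The median log2 difference over the members was −0.77, beside 0.22 over all genes, and −0.41 beside 0.09 without IL-4 #3. Rescaling by the median ratio gave 32 members lower (background 17.2%) and 0 higher (background 17.8%), with 2280 of all genes higher and 2205 lower, against 2671 and 1704 as deposited. The count was 52 without IL-4 #1, and 16, 19 and 18 without IL-6 #1, #2 and #3. Shares over all genes in these fits are not given here, so these counts stand without a background. The contrast shares its IL-4 libraries with that of IL-4 against control, so the values of the members recur in both.

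By complex, the lower members were 8 of 36 in complex I, 3 of 4 in complex II, 5 of 9 in complex III, Cycs, 5 of 15 in complex IV, 8 of 17 in complex V and 3 of 8 assembly factors. Atp5b differed by −1.31 ± 0.14 (limma adjusted p = 0.00022), Atp5a1 by −0.96 ± 0.11 (adjusted p = 0.000337) and Cycs by −1.22 ± 0.15 (adjusted p = 0.000509). Uqcrfs1 differed by −0.97 ± 0.14 (limma adjusted p = 0.00122), Ndufaf4 by −0.85 ± 0.12 (adjusted p = 0.00107) and Sdhc by −0.76 ± 0.13 (adjusted p = 0.00268). Ndufa12, an accessory subunit of complex I, was at 9.86, 16.3 and 16.3 FPKM in the 3 controls, 19.9, 21.99 and 40.7 under IL-4, and 9.305, 10.1 and 10.3 under IL-6. IL-4 and IL-6 did not overlap, and Control #1 fell within the IL-6 range. Its log2 difference of −1.39 ± 0.30 (limma adjusted p = 0.0084) was among the 3 largest falls with Cox6a2 (−2.56 ± 0.64, adjusted p = 0.0162) and Atp5b.

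**Figure D5:**
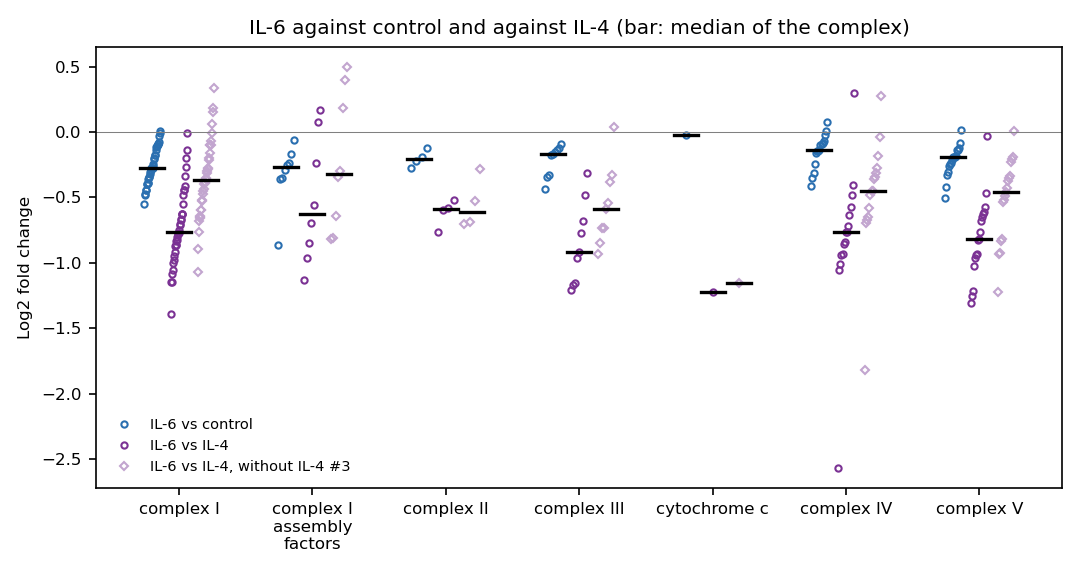
Log2 fold change of each OXPHOS gene for IL-6 against control, IL-6 against IL-4, and IL-6 against IL-4 without IL-4 #3, by complex; black bars are medians. Most points lie below 0 in all 3, with medians over the members of −0.20, −0.77 and −0.41.

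By library range, 71 members were lower in all 3 IL-6 than in all 3 IL-4 libraries (background 20.6%) and 0 were higher (background 36.3%). Within the set of libraries that holds IL-4 #2, IL-4 #3 and all IL-6, the ratio of the IL-6 mean to IL-4 #2 had a median of 0.73 over 90 members and lay below 1 in 81. It was 0.46 for Cycs, and the medians were 0.61 for complex III, 0.67 for complex II and 0.75 for complex I. This ratio leaves out IL-4 #3 and rests on 1 IL-4 library, and the same over all genes is not given here. With a term for the set, 52 members were called lower (background 14.6%) and 0 higher (background 24.7%). That fit sets IL-6 against IL-4 #2 and #3, the IL-4 libraries of the same set, so IL-4 #3 weighs more in it. Around the members, where 13.3% of all genes were called lower with all libraries, 13 of 39 chain assembly factors, 13 of 25 import and inner membrane genes and 29 of 77 mitochondrial ribosomal proteins were lower with IL-6 than with IL-4, with Fmc1 (−1.75, limma adjusted p = 0.00936) and Timm8a1 (−2.36, adjusted p = 0.00142) as the largest falls of the first and second lists, and 5 of 76 cytosolic ribosomal proteins were lower. Other lists were mixed or flat, where 20.8% of all genes were called higher. Of 18 carriers 7 were lower and 3 higher, and of 16 genes of electron entry to ubiquinone 7 were lower and 2 higher. Of 17 regulators 0 were lower and 1 higher, and of 12 transcripts of mitochondrial DNA 0 were called in either direction.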

How the data were processed

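Polyadenylated RNA of 9 libraries was sequenced. The authors deposited FPKM of 53379 genes per library; their methods and the labels name STAR 2.4.2a, GRCm38 and Cufflinks 2.2.1. Values above 0 and up to 100 fragments were whole fragments over the GENCODE M21 exon length (100.0% within 0.05), so fragments were read back from the steps, which Cufflinks estimates would not give, and the program behind the table is not settled. FPKM uses the union of exons, so a gene with long rarely used exons reads low. Of the 95 members, 79 matched M21 with their version and 16 without it, and 14 share over 10% of their 50-base stretches with other genes.

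The 12824 genes with a mean of at least 0.5 FPKM were fitted as log2(FPKM + 0.1) with limma 3.58.1 (R 4.3.3; 3 groups, trend and robust moderation, Benjamini-Hochberg adjustment), and calls used an adjusted p under 0.05. Fold changes are on that scale and understate low genes. The fit was checked on simulated data with independent noise in each gene. Those data held no shift of a whole library, such as that of IL-4 #3, so the check does not cover it. Members, lists, named genes and tests were chosen with earlier results of these data known. Named are members given by role, the 3 largest called changes, and the smallest adjusted p of each complex; of each other list, the largest called changes, besides the mitochondrial DNA transcripts, Socs3 and Arg1. A gene named by this rule is not reported here. Ndufb1, which the table holds only under a pseudogene symbol, was left out.

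Alternatives were pseudocounts of 1 and 0.01, no filter or a mean of at least 5 FPKM, median-ratio scaling, quantile normalization, trends on length and GC removed (splines, 5 degrees of freedom), limma voom on recovered fragments (74 members), fitting only the groups compared, a term for the set of libraries, the replicate number as a block, a log2 fold change of at least 1, and leaving out each library. Median-ratio scaling or the set term together with leaving out IL-4 #3 were added after seeing the data. The sets rest on 20 of 21 Paneth and goblet cell genes, Clca3a1 being dropped after its values were seen. The labels number 3 libraries in each condition and do not say that a number is the same mouse throughout. Deviations from the group means of same-numbered libraries gave r of 0.408, 0.201 and 0.166 for IL-6 against control, all above 0.1, but not for the other comparisons. Promoters are from RefSeq (GRCm38.p6). Plots used Python 3.11.15 and matplotlib 3.10.9. No protein sequences were used here.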

Additional observations from a re-analysis of the deposited data

How the results depend on the processing

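Counts of members called changed by over 1.5 times as follows. The share of all genes called also moved with the setting, so a count of members alone is not a share against the background. For genes higher with IL-4 that share was 8.55% in the main fit, 12.3% with median-ratio scaling and 15.0% with trends removed. For IL-4 against control, against 16 higher and 0 lower, 10 were higher with no filter, 5 when fitting only the groups compared, 3 at a log2 fold change of at least 1 and 38 with length and GC trends removed (1 lower). Median-ratio scaling without IL-4 #3 gave 25 higher and 1 lower. Counts with the set term are left out for this contrast, since they rest on IL-4 #1 alone. For IL-6 against control, against 0 lower, 2 were lower with trends removed, 5 when fitting only the groups compared and 6 with median-ratio scaling without IL-4 #3. For IL-6 against IL-4, against 33 lower and 0 higher, 55 were lower with trends removed, 19 when fitting only the groups compared, 52 with the set term and 14 at a log2 fold change of at least 1. With median-ratio scaling without IL-4 #3, 1 was higher. Leaving out each library gave 5 to 22 higher and 0 to 2 lower for IL-4 against control, 0 to 7 lower for IL-6 against control, and 16 to 52 lower and 0 to 1 higher for IL-6 against IL-4. Of these, the fewest came without Control #1 or #3 (5 each) and IL-6 #1 (16), and the most without IL-4 #1 (22 and 52). With the replicate number as a block, 18 members were higher with IL-4, 0 passed with IL-6 and 39 were lower with IL-6 than with IL-4; pairing lost the IL-4 calls of Sdha and Ndufaf5 and added Ndufa12, Ndufv1, Atp5f1 and Atp5o. Same-numbered libraries had r of 0.521, −0.415 and 0.0777 for IL-4 against control and 0.281, −0.0612 and 0.153 for IL-6 against IL-4. In each of these, 3 of 6 libraries correlated best with their own number, and 5 of 6 did for IL-6 against control. With 3 libraries a group, such counts cannot settle whether a number stands for the same mouse. No result changed sign past the threshold under the alternatives run. The cause of these changes was not tested. With 3 libraries a group, and control and IL-6 in different sets of libraries, set and IL-6 cannot be told apart except through IL-4 #1. Members of few fragments, such as Cox6a2 and Cox6b2, are the least precise.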
